A study of Mus musculus with 2 samples.

Results

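Broad peaks of moderate height are the regions of this chromatin immunoprecipitation (ChIP-seq) peak list that were 1000 bp or longer and had fewer than 300 fragments stacked over their highest point. They were chosen by length and pileup, 2 measured values, from the authors' deposited table on chromosomes 1 to 19, where 1138 of 49034 peaks (2.32%) met both limits, out of 51356 peaks in the whole list. The cells were C2C12, an established line of mouse myoblasts, of 1 puromycin-selected clone in which doxycycline switches on MMH, a codon-altered chimera. The chimera pairs the DNA-binding homeodomains of mouse Dux with the C-terminal region of its human relative DUX4. Every library came from cells of that clone treated with 2 ug/ml doxycycline, for 18 h per the labels. Of the 2 libraries, 1 was precipitated with antisera against DUX4 (MO488, MO489) and the control carries the label anti-HA, which the series' design text instead calls a GFP antibody. With 1 library per group no replicate error can be measured, and no test is made.

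Dux and DUX4 are double-homeodomain transcription factors that switch on genes of the early embryo around the time the zygotic genome becomes active. Each of the paired homeodomains contacts a short AT-rich element, so a bound site is only a few base pairs long. The width of a ChIP-seq peak over such a site is set mainly by the length of the sheared DNA fragments that contain it. Several sites close together can therefore appear as a single long peak in a list like this.

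Sequence was at hand only for promoters, and it was read where a broad peak covered a whole promoter window of RefSeq (build GRCm38.p6; mm10 is the same primary assembly), from 250 bases before a gene's start to 50 after it. This was so for 10 regions. The first 250 bases of 5 of these windows are shown, 5′ to 3′ on the strand of the gene, because they carry letters of a Dux-type site beside the summit, the highest point of the peak; capitals mark TGATTNAAT or its reverse complement ATTNAATCA, where N is any base. *Pramel32* (chr4:88634187-88634436, minus strand), *Pramel31* (chr4:144357714-144357963, plus strand) and *Gm13043* (chr4:143511093-143511342, plus strand) are protein-coding genes, the first 2 named for the Prame-like family. *AF067061* (chr13:120262845-120263094, plus strand) is a protein-coding gene next to the *Tcstv* genes, and *2210417A02Rik* (chr5:148741590-148741839, plus strand) is a long noncoding RNA gene.

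Pramel32: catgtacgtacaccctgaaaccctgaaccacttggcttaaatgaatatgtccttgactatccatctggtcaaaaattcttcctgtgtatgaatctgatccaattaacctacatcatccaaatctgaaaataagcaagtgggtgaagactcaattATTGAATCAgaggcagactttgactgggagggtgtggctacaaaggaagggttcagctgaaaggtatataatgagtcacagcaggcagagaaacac
Pramel31: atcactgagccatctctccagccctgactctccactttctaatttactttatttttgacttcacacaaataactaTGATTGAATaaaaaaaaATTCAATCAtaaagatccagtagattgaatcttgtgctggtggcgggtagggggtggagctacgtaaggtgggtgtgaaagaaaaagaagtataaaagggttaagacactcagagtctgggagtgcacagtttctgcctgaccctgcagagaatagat
Gm13043: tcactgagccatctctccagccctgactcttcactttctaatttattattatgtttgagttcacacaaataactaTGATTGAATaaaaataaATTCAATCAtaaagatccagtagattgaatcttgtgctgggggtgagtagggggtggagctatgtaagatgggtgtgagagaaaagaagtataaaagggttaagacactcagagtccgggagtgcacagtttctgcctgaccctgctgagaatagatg
AF067061: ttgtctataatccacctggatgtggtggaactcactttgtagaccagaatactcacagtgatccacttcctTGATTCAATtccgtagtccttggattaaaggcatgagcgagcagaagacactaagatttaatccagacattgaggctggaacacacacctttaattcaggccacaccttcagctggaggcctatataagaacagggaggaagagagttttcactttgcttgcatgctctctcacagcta
2210417A02Rik: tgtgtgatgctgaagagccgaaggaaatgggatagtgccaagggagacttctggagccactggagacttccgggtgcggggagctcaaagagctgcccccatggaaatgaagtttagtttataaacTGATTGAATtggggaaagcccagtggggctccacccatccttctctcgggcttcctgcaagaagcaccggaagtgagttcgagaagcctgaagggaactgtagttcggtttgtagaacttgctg

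In these 5 windows the centre of a marked stretch lay close to the deposited summit: 2 bp away at *AF067061*, 9 bp at *2210417A02Rik*, 15 bp at *Gm13043*, 17 bp at *Pramel32* and 22 bp at *Pramel31*. The windows of *Pramel31* and *Gm13043* hold the stretch a second time, on the other strand, 39 and 32 bp from their summits. They are copies of each other, with 284 of 298 aligned bases identical (95.3%), so they are not separate cases. Over all 32851 promoter windows 0.718% held the stretch. It stood in 58 of 373 windows that contained the summit of any peak (15.5%), and its centre lay within 50 bp of that summit in 53 of the 58. Among the 9 windows holding the summit of a broad peak of moderate height, 5 had it, and among 75 holding the summit of a shorter peak of like pileup (62 to 158 fragments), 18 had it (24.0%). The letters TGATTNAAT were chosen after these sequences had been read. The 5 windows were shown for holding them beside the summit, so that closeness and the 5 of 9 are no support. The 58 windows include these 5, and windows of copied genes or of the same summit count separately (the 75 windows came from 69 summits). The shares of TGATTNAAT with any peak and with a shorter peak are therefore descriptive as well. The coding promoters taken in order of fold enrichment also included *Olfr1289* and *4930583I09Rik*, and neither held the stretch. Of the motifs chosen earlier, both strands searched, the mouse Dux motif, which is TGATTNAAT followed by CA, was in none of the 10 covered windows and none of the 9 summit windows, against 0.0335% of all windows and 1.88% of windows with the summit of any peak. The DUX4-family motif, which is TAA and AATCA with any 3 bases between them and can overlap the mouse Dux motif, was in none of the 10 and in 1 of the 9, against 1.03% of all windows and 6.17% of windows with the summit of any peak. The shared core AATCA was in 7 of the 10 and in 8 of the 9, against 37.0% of all windows, 79.6% of windows with the summit of any peak and 60 of the 75 windows with the summit of a shorter peak of like pileup. The windows cover only part of each peak, so the bases under the rest of the broad peaks were not analysed here.

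The limits themselves describe the peaks and are not results. Pileup, the height in antisera fragments at the summit, ran from 21 to 299 with a median of 98, against a median of 41 over all peaks of chromosomes 1 to 19. Median length was 1155 bp, with the middle 50% between 1067 and 1322 bp and the longest at 4115 bp, against 431 bp over all peaks. Most of the regions lay close to the length limit: 685 of 1138 (60.2%) were under 1200 bp, 153 were 1500 bp or longer and 23 were 2000 bp or longer. Local background, estimated from the control library, was at its genome-wide minimum of 4.01 fragments for all but 245 of them (21.5%, against 22.1% of all peaks). Fold enrichment, the ratio of pileup to local background with 1 added to each, had a median of 18.95. It was 20 or more at 537 of the 1138 regions (47.2%), against 13.8% of all peaks of chromosomes 1 to 19 and 32.0% of shorter peaks of like pileup. Fold follows pileup, and the length limit selects taller peaks, so nothing is read from this count.

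**Figure D1:**
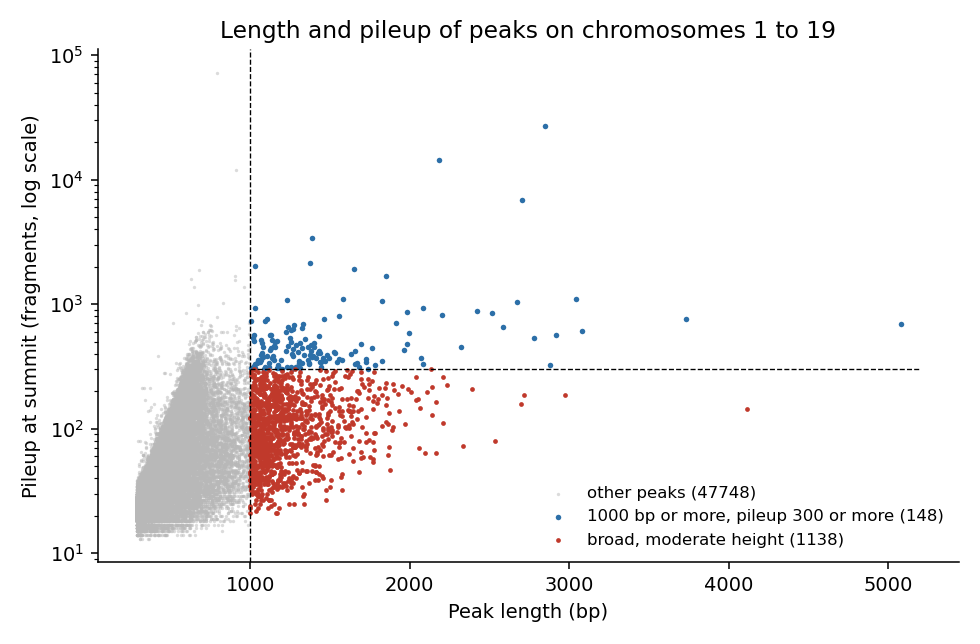
Length in bp (horizontal) and pileup in fragments (vertical, log scale) of each peak on chromosomes 1 to 19; dashed lines mark 1000 bp and 300 fragments. The 1138 broad peaks of moderate height (red) are most crowded next to 1000 bp, and 148 peaks of at least 1000 bp (blue) had a pileup of 300 or more.

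At the edges of the rule the values ran on without a step. Of peaks under 300 fragments, 409 were 1000 to under 1100 bp long and 562 were 900 to under 1000 bp long. The shortest included a 1000 bp peak inside *Igfbp3*, which encodes a binding protein for insulin-like growth factors, with a pileup of 35. The nearest outside fell short of the limit by 1 bp, among them one inside *Gucy1a2*, a subunit of soluble guanylate cyclase, with a pileup of 150. By pileup, the highest inside were 3 peaks at 299 fragments, on chromosomes 8, 1 and 6, and the lowest outside were 2 peaks at 300 fragments, on chromosomes 8 and 3. Among peaks of 1000 bp or longer, 1138 of 1286 (88.5%) were under the pileup limit.

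The summit of a broad peak usually sat off centre but seldom at the very edge. Position along the peak was measured from its lower coordinate. It fell between 10 and 30% or between 70 and 90% of the length in 815 of 1138 regions (71.6%, exact binomial 95% interval 68.9 to 74.2%). These zones make up 40% of the length but were not among the planned counts, so their share is descriptive. Fragments over a summit reach to both sides of it, so an even spread up to the edges is not a fair reference. Only 131 summits (11.5%) lay in the middle 20%, from 40 to 60%. The planned count was of the first and last 25%, which together make up 50% of the length. They held 580 summits (51.0%, interval 48.0 to 53.9%), about the share of even placement, and the first and last 10% held 3. Summits lay below the midpoint in 576 regions (50.6%). All intervals on shares cover counting error only.

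Shorter peaks of like height were centred instead. For comparison, 11176 peaks under 1000 bp were taken whose pileup lay between the quartiles of the broad peaks' pileups, 62 and 158 fragments. Of these, 9719 (87.0%) had the summit in the middle 20%, 344 (3.08%) in the zones from 10 to 30% and 70 to 90%, and 68 (0.608%) in the first or last 25%. The 148 peaks of 1000 bp or longer with 300 fragments or more stood between, with 29 summits (19.6%, interval 13.5 to 26.9%) in the first or last 25% and 32 (21.6%) in the middle 20%. Summit position and length come from the same enrichment profile, so these shares are descriptive and carry no test.

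**Figure D2:**
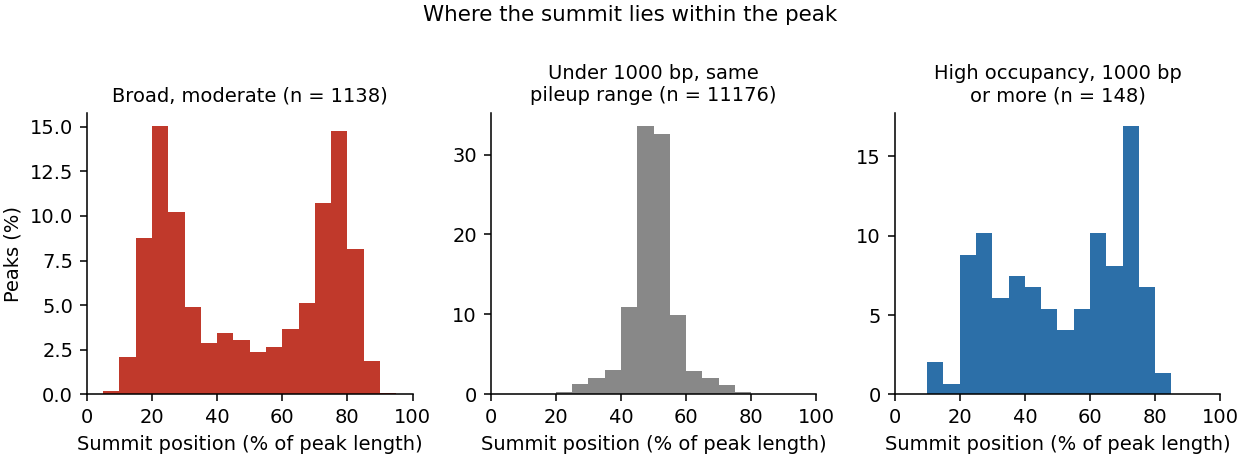
Histograms of summit position, in percent of peak length from the lower coordinate (classes of 5%), as a percentage of peaks in each set. The 1138 broad peaks of moderate height form a hump on each side of the centre, the 11176 shorter peaks of like pileup form 1 central hump, and the 148 high-occupancy peaks spread over both.

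The distances from the summit to the edges, called arms here, show the same asymmetry in base pairs. The shorter arm of a broad peak had a median of 295 bp (middle 50%, 251 to 361 bp) and the longer arm 852 bp (767 to 993 bp). In the shorter peaks of like pileup the arms were 243 and 279 bp at the median. The longer arm was at least 2 times the shorter in 915 of the broad peaks (80.4%) and in 5.55% of those shorter peaks.

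To set a reference for each region, the usual arm was taken as the median length of peaks under 1000 bp with pileup within 10% of its own, divided by 2. This usual arm had a median of 267 bp and ran from 161 to 330 bp. The ratio of the shorter arm to the usual arm had a median of 1.08 (middle 50%, 0.957 to 1.37), and 773 of 1138 shorter arms (67.9%) were within 25% of the usual arm. The usual arm takes both sides of a peak together, so it is not a shorter arm. Compared like for like, the shorter arm was 295 bp at the median in the broad peaks and 243 bp in the shorter peaks of like pileup. The share within 25% was not computed for those shorter peaks. The regions were 2.29 times as long as usual at the median. Among the 23 regions of 2000 bp or longer the shorter arm was 2.00 times the usual arm at the median, and 7 of those shorter arms were within 25% of it.

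**Figure D3:**
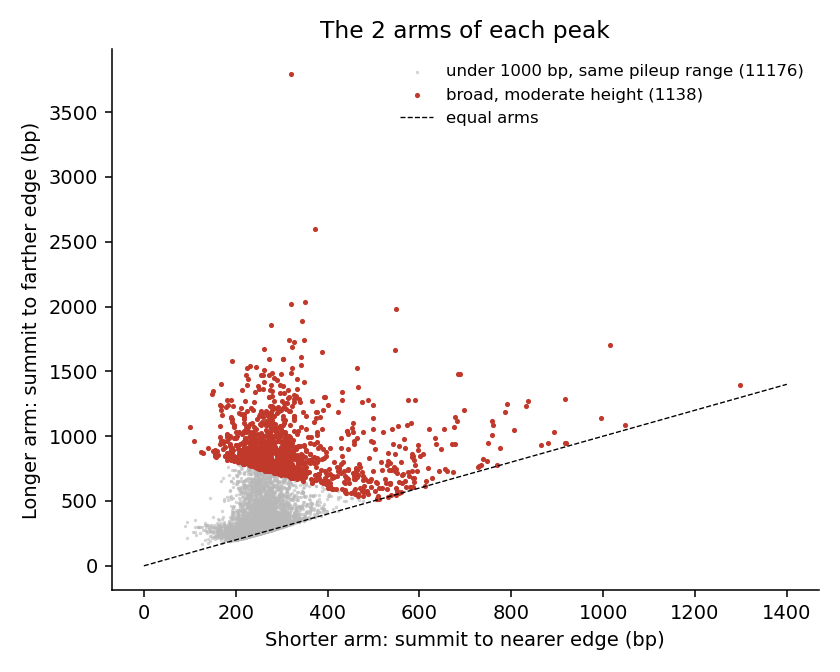
Shorter arm (horizontal) against longer arm (vertical), in bp, for the broad peaks of moderate height (red) and the shorter peaks of like pileup (grey); the dashed line marks equal arms. The shorter arm of the red points has a median of 295 bp, against 243 bp for the grey points, and the longer arm 852 bp against 279 bp; the sloping lower border of the red points is the 1000 bp limit.

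Several measures bear on whether these regions look like merged sites. The labels give sheared fragments of 150 to 600 bp and the file headers a fragment size of 287 bp. The longer arm exceeded 600 bp, the upper end of the labelled range, in 1101 of 1138 regions (96.7%, interval 95.5 to 97.7%). Whether more than 1 site lies under such an arm was not tested. The rule fixes part of this, since any region longer than 1201 bp must have such an arm and every region of 1000 bp an arm of at least about 500 bp. In 49 regions (4.31%) both arms exceeded 600 bp and in 37 (3.25%) neither did. Among all peaks of chromosomes 1 to 19, 4.56% had a longer arm over 600 bp.

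The peak list itself shows the distance at which neighbours were joined. The narrowest gap between any neighbouring peaks was 288 bp and the shortest peak was 287 bp, the fragment size of the header, so enriched stretches nearer than that do not appear as separate peaks. In the broad peaks, the longer arm minus the usual arm, which is where the centre of a like peak at the far edge would lie, had a median of 598 bp from the summit, with 80% of regions between 418 and 930 bp. Separate neighbouring peaks, each under 1000 bp and 300 fragments, were never nearer than 514 bp from summit to summit. Both distances are bounded in advance, that of the broad peaks by the length limit and that of separate pairs by the narrowest gap plus an arm of each peak, so their distributions are a description and bear on no comparison. The most frequent 100 bp class for broad peaks was 500 to 600 bp, with 302 regions, where 9 separate pairs were found. From 800 to 900 bp there were 80 regions and 247 separate pairs.

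**Figure D4:**
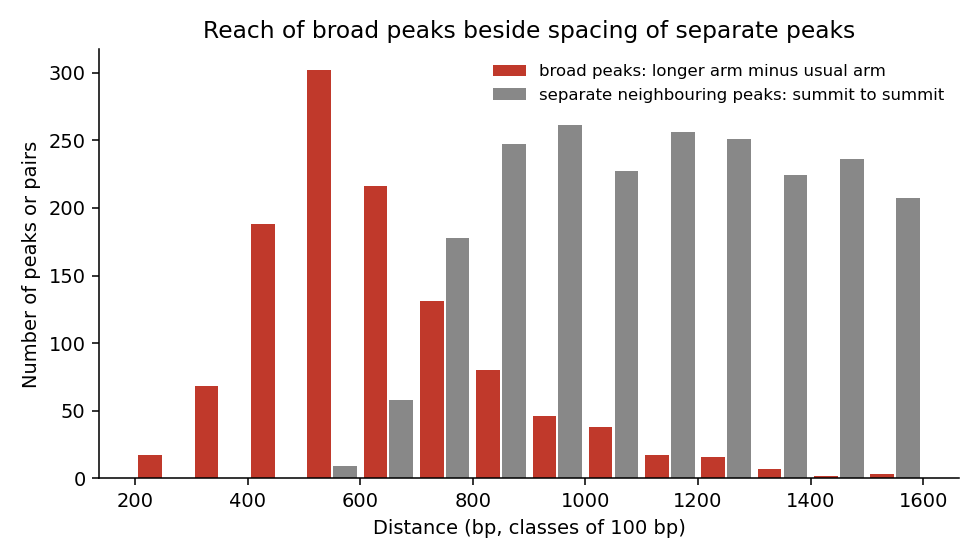
Number of broad peaks of moderate height by longer arm minus usual arm (red), and number of separate neighbouring pairs by summit-to-summit distance (grey), in classes of 100 bp. Red counts are highest at 500 to 600 bp. The length limit bounds the red distances, and the narrowest gap plus an arm of each peak bounds the grey ones, so they bear on no comparison.

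Set against ordinary peaks of the same pileup, lengths varied widely. In 338 of 1138 regions (29.7%) the length exceeded 2 usual peaks of the same pileup with a gap of 287 bp between them. This count was 28 of 409 regions (6.85%) at 1000 to under 1100 bp, 83 of 156 (53.2%) at 1300 to under 1500 bp and all 23 at 2000 bp or longer. The count follows from length, which the rule used, and supports nothing on the number of sites. The deposited table gives 1 summit per peak, so the number of sites in a region was not counted.

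Among the longest regions, the summit was again most often off centre. The longest, 4115 bp at chr10:58750883-58754997, had its summit 6166 bp outside the pseudogene *Gm6494* and had a pileup of 145 over a background of 4.01, a 29.1-fold enrichment (24.6 to 34.2, a 95% Poisson interval that takes the background as fixed). Its arms were 321 and 3793 bp. The next, 2973 bp at chr13:120280684-120283656, had its summit inside the long noncoding RNA gene *Gm39470* and reached past the end of that gene, with arms of 373 and 2599 bp and 37.3-fold enrichment (32.2 to 43.0). The region of 2533 bp inside *Aatf*, which encodes a nuclear regulator of transcription and apoptosis, had 79 fragments and arms of 1984 and 548 bp.

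Other long regions had both arms long. The 2695 bp region at chr13:119893698-119896392, its summit 210 bp outside *Tcstv1*, a gene of the 2-cell embryo, had arms of 1297 and 1397 bp and 31.7-fold enrichment (27.0 to 37.0). The 2717 bp region on chromosome 2, its summit 44607 bp from the pseudogene *Gm13806*, had arms of 1701 and 1015 bp. The 2208 bp region inside *Kcnip4*, which encodes a potassium channel-interacting protein, had 260 fragments, 52.1-fold enrichment (45.9 to 58.8) and arms of 918 and 1289 bp.

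Taller peaks were more often broad. The share of peaks on chromosomes 1 to 19 that were 1000 bp or longer was 0.260% at a pileup of 20 to under 30 (31 of 11924), 3.61% at 60 to under 80 (187 of 5183) and 13.8% at 200 to under 300 (160 of 1157). Median length of all peaks rose over the same classes from 333 to 490 and 652 bp. Pileup and length are read from the same profile, so this is a description of the list.

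The broad peaks were spread over genes and intergenic DNA much as other peaks. A summit lay inside an annotated gene in 537 of 1138 regions (47.2%, interval 44.3 to 50.1%), against 48.4% of all peaks of chromosomes 1 to 19, and inside a protein-coding gene in 437 (38.4%, 35.6 to 41.3%), against 39.95%. Within 1 kb of a coding gene's end there were 32 (2.81%, 1.93 to 3.95%), against 3.09%. Within 5 kb there were 114 (10.0%, 8.33 to 11.9%), against 12.4% of all peaks and 12.7% of the shorter peaks of like pileup. More than 100 kb outside any coding gene there were 339 (29.8%, 27.1 to 32.5%), against 27.7%. The nearest gene was protein-coding for 54.7%, a long noncoding RNA for 23.4% and a pseudogene for 15.7% of the regions, against 54.5, 24.2 and 16.0% of all peaks. Each of these comparison values but the 5 kb share lay within the interval of the broad peaks, and no difference was tested.

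Neighbouring peaks were nearer than in the list at large. The median gap to the closest other peak was 6704 bp, against 11716 bp over all peaks and 11327 bp for the shorter peaks of like pileup. A neighbour within 1500 bp was found for 243 regions (21.4%), against 12.7% of all peaks, 13.1% of the shorter peaks of like pileup and 37.2% of the high-occupancy peaks of 1000 bp or longer. The difference was not tested, since peaks of a single library are not replicates.

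Chromosomes 15 and 4 held the highest shares of broad peaks. On chromosome 15, 113 of 2888 peaks (3.91%, interval 3.24 to 4.69%) were broad and of moderate height, and on chromosome 4 there were 128 of 3787 (3.38%, 2.83 to 4.01%). On the other 17 chromosomes the share was 2.12% together and ran from 1.09% on chromosome 18 to 2.72% on chromosome 13. These are also the chromosomes where the local background most often lay above its minimum, in 81.3% of peaks on 15 and 43.1% on 4, against 14.2 to 18.9% elsewhere, and median pileup there was 45 and 43 fragments against 40 to 42. Among peaks of 60 to under 300 fragments only, the shares were 8.81% on 15 and 9.02% on 4, against 5.39% on the others together. Of the broad peaks themselves, 76.1% on chromosome 15 and 36.7% on chromosome 4 had a background above the minimum. On the other chromosomes this ran from 0% on 18 to 21.1% on 3. The part of the background in these shares was not tested.

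**Figure D5:**
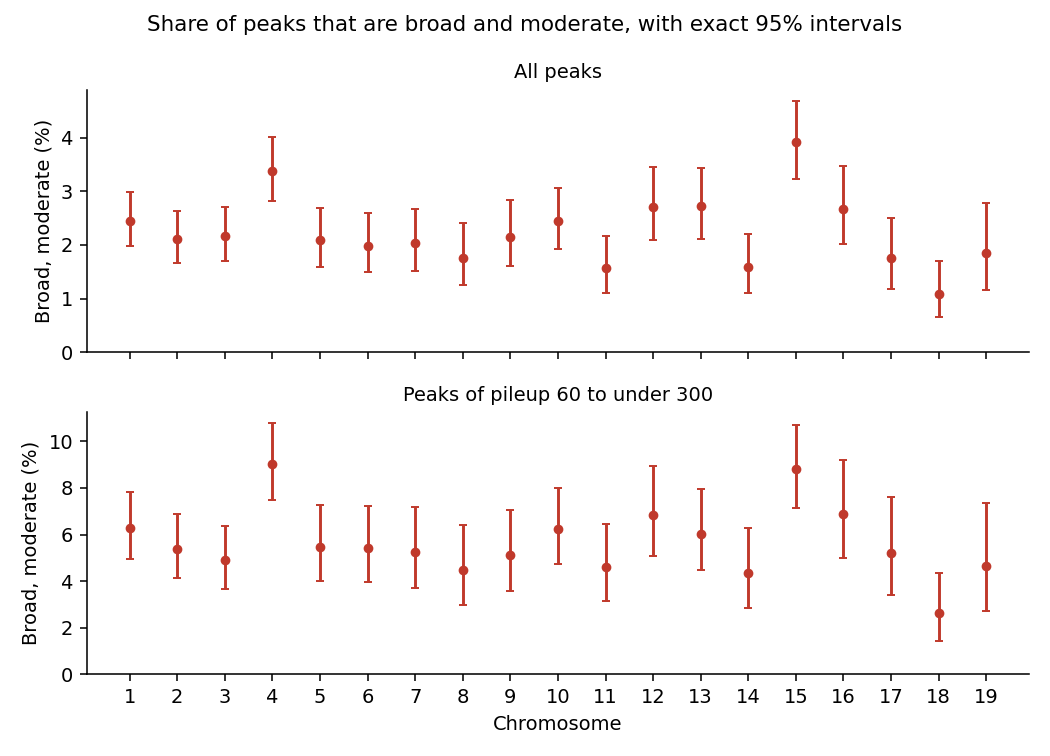
Percentage of peaks on each chromosome that were broad and of moderate height, among all peaks (top) and among peaks with a pileup of 60 to under 300 (bottom), with exact binomial 95% intervals. Chromosomes 4 and 15 have the highest values in both panels and chromosome 18 the lowest.

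The coding genes nearest to these regions included several families of the 2-cell embryo. Genes were assigned by a summit within 5 kb of either end, which 131 of 20665 coding genes of chromosomes 1 to 19 (0.634%) had from a broad peak of moderate height and 28.1% had from any peak. Of 32 genes of a 2-cell list, 12 (37.5%) had a broad peak of moderate height and 28 had a peak of any kind. The 12 include all the *Usp17l* genes, *Pramel11*, *Pramel19*, *Tcstv1* and *Tcstv3*, which are counted again in the families below. That the 2-cell genes lie near peaks in these data was known when the list was drawn up, so these counts are descriptive. Many of the genes are near-identical copies, and the sources used here do not say how reads matching several copies were placed, so each copy's value is uncertain.

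All 5 *Usp17l* genes, a tandem deubiquitinase family on chromosome 7, had such a region, a family picked out after its values were seen. Pileup was 252 at *Usp17lc*, 232 at *Usp17la*, 230 at *Usp17lb*, 166 at *Usp17ld* and 255 at *Usp17le*, over backgrounds of 4.01 at the first 4 and 6.73 at the last. Fold enrichment ran from 33.1 at *Usp17le* (Poisson interval 29.2 to 37.4) to 50.5 at *Usp17lc* (44.4 to 57.1). Lengths ran from 1031 to 1850 bp. The shorter arms were close to each other, at 287, 322, 296, 274 and 295 bp in the same order, while the longer arms ran from 743 to 1527 bp. The summit lay 976 to 2583 bp from the nearer gene end.

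Of 45 Prame-like genes, which encode leucine-rich repeat proteins expressed in germ cells and early embryos, 8 had a broad peak of moderate height and 25 a peak of any kind. The 4 strongest had fold enrichments of 40.7 at *Pramel24* (35.3 to 46.7), 38.7 at *Pramel32* (33.7 to 44.2), 37.3 at *Pramel4* (32.2 to 43.0) and 34.7 at *Pramel31* (29.8 to 40.2). The other 4 were *Pramel11* at 31.5-fold, *Pramel19* and *Pramel20* at 18.6-fold each and *Pramel18* at 10.5-fold. The list went by gene symbol, so it left out *Gm13043*, whose promoter window is a copy of that of *Pramel31*. That window held the summit of a region with 31.8-fold enrichment. Shapes differed within the family. The arms were 286 and 918 bp at *Pramel24* and 320 and 1484 bp at *Pramel32*, but 879 and 946 bp at *Pramel4* and 681 and 1117 bp at *Pramel31*. The summits at *Pramel32* and *Pramel31* lay 109 and 193 bp outside the gene, in the promoter windows printed above.

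On chromosome 13 the neighbouring genes *Tcstv3* and *AF067061* had regions of 1556 and 1613 bp with 30.1-fold and 28.5-fold enrichment and summits 186 and 173 bp outside the gene. *BC147527*, which lies between them, had a weaker region of 1045 bp, with 65 fragments, 13.2-fold enrichment and a summit inside the gene. Of 5 *Tcstv* genes and neighbours, picked out after their values were seen, 4 had such a region and all 5 had a peak of some kind. *Gm5662* and *Gm8300* on chromosome 12, both on the 2-cell list, had 37.2-fold (32.8 to 42.1) and 24.3-fold enrichment with summits 128 and 125 bp outside the gene. The weakest on that list was *Tdpoz3*, of a family of BTB-domain genes, with 53 fragments over a background of 7.08, or 6.68-fold.

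The other lists are set beside the same 0.634% of all coding genes, and with counts this small none of them is read as high or low. Of 45 skeletal muscle genes 1 (2.22%) had such a region, *Des*, which encodes the intermediate filament desmin, with a pileup of 124 and a summit 1421 bp outside the gene, against 12 with any peak. Of 25 genes of chromatin silencing 1 (4%) had one, *Cbx5*, encoding heterochromatin protein HP1 alpha, with 87 fragments and a summit inside the gene, 760 bp from its end. Of 6 coding *Obox* genes, homeobox genes of the oocyte and early embryo, 2 (33.3%) had one, *Obox5* at 17.8-fold and *Obox7* at 10.8-fold, and all 6 had a peak of some kind. None of 16 housekeeping and 39 *Hox* genes did, against 7 and 14 with any peak. Olfactory receptor genes had such a region in 3 of 1102 cases (0.272%), led by *Olfr576* at 31.9-fold, against 187 with any peak. The other cases, *Olfr1288* and *Olfr1289*, shared the same region. Vomeronasal receptor genes had one in 2 of 354, *Vmn2r85* at 8.18-fold and *Vmn1r210* at 5.59-fold, against 48 with any peak. Genes named *Zfp* with a number, mostly zinc-finger proteins, had one in 2 of 388, *Zfp40* at 17.2-fold and *Zfp558* at 8.58-fold, against 127 with any peak.

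Ranked by fold enrichment, the 25 genes named by these regions also included single genes of many functions, and 9 of the 25 had the summit inside the gene. *Ccnl1*, encoding cyclin L1, came first with 293 fragments and 58.6-fold enrichment (52.1 to 65.7), 2150 bp inside the gene, in a region of 1003 bp with arms of 440 and 562 bp. *Cep78*, of a centrosomal protein, had 52.9-fold (46.7 to 59.6) at a summit 4488 bp outside the gene, with arms of 529 and 775 bp. *Myo1d*, an unconventional myosin, had 49.3-fold (43.3 to 55.8) inside the gene. *Ergic2*, of transport between endoplasmic reticulum and Golgi, had 48.5-fold (42.6 to 55.0) at a summit 1668 bp outside the gene. *Siah2*, a ubiquitin ligase, had 43.1-fold, *Kansl2*, a subunit of a histone acetyltransferase complex, had 42.3-fold and the linker histone gene *H1f2* had 41.9-fold. Their summits lay 3080, 3171 and 2593 bp outside the genes in that order. The summits at *Cep78*, *Ergic2* and *Siah2* lay inside long noncoding RNA genes. The others outside the families above were *1700034E13Rik*, *Gm5431*, *Cinp*, *Cttnbp2*, *Cutc*, *Rgmb*, *Ugt2b38* and *Ifna13*, from 32.5-fold at *Ifna13* to 54.1-fold at *1700034E13Rik*.

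The regions were mostly scattered. In windows of 100 kb, 987 windows held 1, 55 held 2, 8 held 3, 3 held 4 and 1 held 5. The last, from 101900000 to 101999999 on chromosome 4 beside *Pramel18* and *Pramel19*, held 15 peaks in all. Its 5 qualifying peaks lay between 101910342 and 101950656, with 5.95-fold to 33.9-fold enrichment over backgrounds of 4.67 to 10.1. A second Prame-like window, from 143900000 to 143999999 on the same chromosome, held 18 peaks. The 4 that qualified lay between 143904997 and 143973891. Near the start of chromosome 9, the window from 3000000 to 3099999 held 21 peaks. The 4 that qualified lay between 3044966 and 3062816, with 3.94-fold to 39.1-fold enrichment. In a window of chromosome 15 whose nearest gene was *Csmd3*, 4 of 6 peaks qualified, from 49 to 209 fragments.

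A high local background was rare. It reached 10 fragments or more at 4 regions (0.351%, interval 0.0959 to 0.897%), against 0.224% of all peaks of chromosomes 1 to 19. The highest was 76.3 fragments inside *Sfi1*, which encodes a centrosomal protein, where 244 antisera fragments gave only 3.17-fold enrichment (2.79 to 3.59), the lowest of all the regions. The others lay near *Gm21149*, *Gm30417* and *Pramel18*, with 15.5-fold, 16.6-fold and 5.95-fold enrichment.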

How the data were processed

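ChIP-seq libraries of a single C2C12 clone were grouped by antibody label, 1 library with DUX4 antisera and 1 with the antibody labelled anti-HA. The submitters' processing notes name BWA, MACS2 and mm10. Peaks were called by the authors against the control, per the file headers, by MACS 2.1.0.20151222 in paired-end mode (q-value threshold 0.01), keeping at most 1 fragment per position. That left 26253175 of 32659686 antisera fragments and 23412256 of 40115471 control fragments. Mapping settings: not given in the sources used here.

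The deposited pileup is a signal, the count of antisera fragments over the summit; the deposited fold enrichment is a ratio; the authors' peak caller also gave −log10 of the p-value and q-value. Length and summit are in bp, per the file headers. Local background was recovered as pileup plus 1, divided by fold, minus 1. The Poisson −log10 p recomputed from it matched within 1% in 100% of the 50196 peaks with a finite value.

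Arms, gaps and distances were computed with pandas 2.3.3 and SciPy 1.17.1 from 49943 RefSeq gene spans (21887 protein-coding). A member's usual arm came from peaks under 1000 bp and 300 fragments. Named items were the 10 longest and 5 highest members, those at the limits, the 25 coding genes within 5 kb of the strongest members (1 gene per peak), up to 4 members of each list, and up to 6 coding promoters wholly inside a member; *2210417A02Rik*, the *Usp17l* family, *AF067061* as a *Tcstv* neighbour and the windows of highest member count were chosen after their values were seen. In the gene lists, 4 entries of the 2-cell list found no match. The members and lists were chosen with earlier results of these data known. Scripts were tested on simulated data.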

Additional observations from a re-analysis of the deposited data

How the results depend on the processing

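Of 49 recomputed values, 35 stayed within 1.5 times the reported count or within the reported interval (counting error only) and 14 moved. A length minimum of 1200 bp left 453 regions. All of them (100%) had a longer arm over 600 bp, which any region longer than 1201 bp must have. Their median gap to the nearest peak was 5877 bp, and 61.4% of them had the summit in the first or last 25% of the length. A minimum of 900 bp gave 93.1% with such an arm and 43.8% of summits there. With pileup under 200, 54.4% of summits lay there. An arm limit of 500 bp gave 100% and one of 800 bp 65.2%. The first and last 33.3% held 80.4% of summits. Counting protein-coding genes only gave 38.4% inside a gene, and coding gene ends within 1 and 20 kb gave 2.81% and 29.0%. A background limit of 5 fragments gave 8.79%. Leaving out chromosomes 4 and 15, requiring a −log10 q of 10 or leaving out backgrounds of 10 or more moved no value past its interval. No paired analysis was possible because each group has 1 library. The 1 library per group, the single summit per peak and the unknown placement of multi-mapping reads limit every value.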

Other observations

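The X chromosome, which was outside the rule, had 50 peaks of 1000 bp or longer and under 300 fragments among its 2320 peaks (2.16%, exact binomial 95% interval 1.60 to 2.83%, counting error only). Their median length was 1126 bp, their longest 2611 bp, and their median pileup 107 fragments. The shorter and longer arms were 303 and 828 bp at the median, and 22 of the 50 summits (44.0%) lay in the first or last 25% of the peak.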
